A study of Mus musculus with 2 samples.

Results

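The 10 genes described here belong to the mast cell and basophil granule, its mediators and its IgE receptor, and were measured on 2 arrays. They were chosen by name, from the gene names printed in both scanner files: Cpa3, Cma1, Mcpt8, Mcpt4, Tpsb2 (printed there as Mcpt6), Fcer1a, Ms4a2, Hdc, Prg2 and Mitf. All 10 members had a probe, out of 27595 genes with a probe on the array, and together they had 13 probes in 22 spots. An exon annotation on mm8, the build of the probe positions, was not used here. The PAD4-/- array held RNA of PAD4-deficient cells and the WT array RNA of wild-type cells. PAD4, made from Padi4, changes arginine residues of histones and other proteins into citrulline. Both RNAs came from C57BL/6 mice and from LSK cells, the bone marrow fraction negative for lineage markers and positive for Sca-1 and c-Kit that holds stem cells and multipotent progenitors, collected by flow cytometry. Neither a treatment, nor the age and sex of the mice, nor whether mice were pooled, nor which part of Padi4 was deleted is given in the sources used here.

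Mast cells and basophils are granule-bearing blood cells that carry the high-affinity IgE receptor, and both release histamine and proteases from their granules when that receptor is crosslinked. Mast cell granules hold carboxypeptidase A3, chymases and tryptases, bound to proteoglycan, whereas mouse basophils store the protease encoded by Mcpt8. Both lineages arise from marrow progenitors in which GATA2 is active, and mast cell progenitors leave the marrow and mature in tissues.

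Each value is the processed signal of a probe, a linear intensity from which the background has been subtracted. Levels and differences are on the log2 scale after each array was set to the 75th percentile of its probes, and every difference is PAD4-/- minus WT. With 1 array per group there was no test and no replicate check. The error given with a difference is the spot error of the scanner software over both arrays, and it says nothing of the spread among mice. In RNA of a sorted population, more cells of a type and more RNA per cell cannot be told apart. Padi4 itself kept 21.5%, 21.2% and 24.2% of its WT level on the PAD4-/- array at its 3 probes, and whether these lie in the deleted part is not known. Both arrays lay on 1 slide and in 1 scan. The arrays also differed in sex-linked RNA. All 4 Xist probes were well above background on the PAD4-/- array and none on the WT array. Both Ddx3y probes were well above background on both arrays, with differences of -1.36 and -1.55. They had 1297 and 84.5 on the PAD4-/- array and 3455 and 256 on the WT array. The PAD4-/- array thus had signal of both Xist and Ddx3y, and whether it held RNA of both sexes was not tested.

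Among the members measured on both arrays, Hdc, the gene of histamine synthesis, Prg2, that of the eosinophil-type granule protein, and the chymase Cma1 had the largest differences. A gene counts as measured when the scanner software called a probe of it well above background on both arrays, a filter set by the spread of the background. Of the 8 members measured in this way, 5 were higher on the PAD4-/- array by 1.5-fold or more and none was lower by that much. Among all 17021 measured genes, 2.88% were higher by 1.5-fold or more and 1.87% lower. Hdc, Prg2 and Cma1 were higher by 2-fold or more, as were 1.01% of all genes, and no member was lower by 2-fold, as were 0.476% of all genes. The median difference of the 8 members was 0.69 and that of all genes 0.02. The other 2 members, Tpsb2 and Ms4a2, were well above background on the PAD4-/- array only and enter none of these counts. The members were picked with earlier results of these arrays in view, so the counts describe them and support nothing further.

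**Figure D1:**
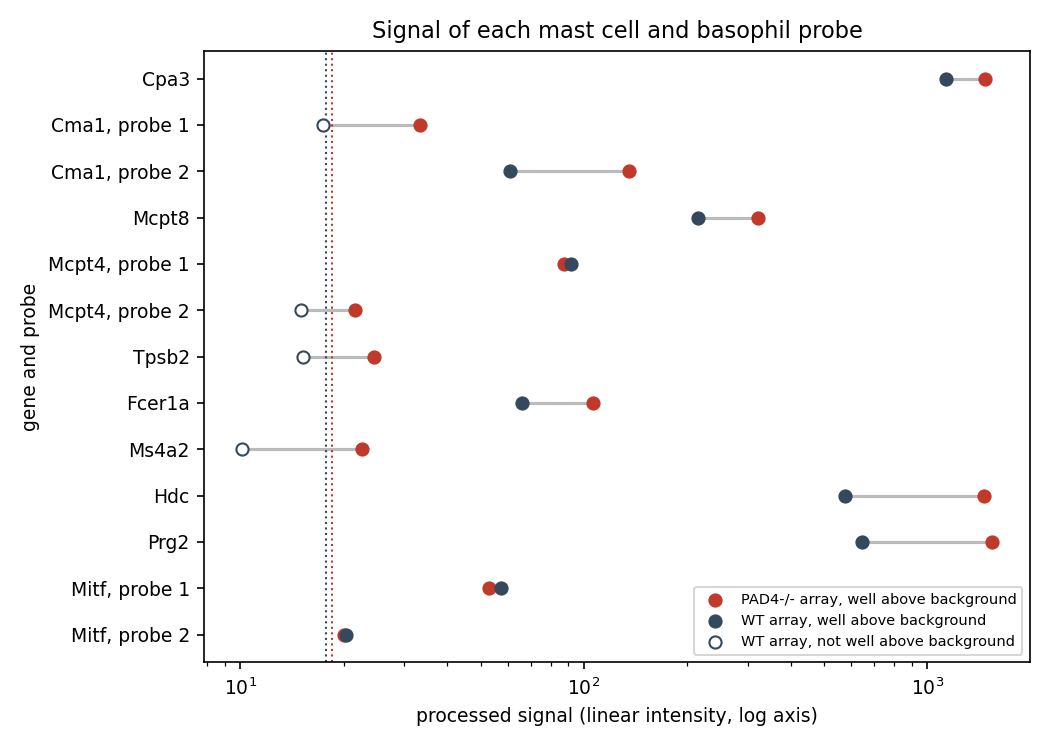
Processed signal (log axis) of the 13 probes of the 10 genes, 1 row per probe, on the PAD4-/- array (red) and the WT array (dark). Open circles are values not well above background, and the dotted lines mark the lowest signal well above background on each array, 18.5 (PAD4-/-) and 17.7 (WT). The 4 open circles are all on the WT array, and the signals of Hdc and Prg2 lie far from the dotted lines on both arrays.

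Hdc encodes histidine decarboxylase, which makes histamine from histidine. Its probe (A_51_P254656, mm8 chromosome 2, 126285221 to 126285280) gave 1457 on the PAD4-/- array and 577 on the WT array. The difference was 1.39 with an error of 0.20, a 2.61-fold higher level. Prg2 encodes the proform of eosinophil major basic protein, a cationic toxin that basophils also make. Its probe (A_51_P363400, mm8 chromosome 2, 84783481 to 84783540) gave 1545 on the PAD4-/- array and 647 on the WT array, a difference of 1.31 with an error of 0.20. Hdc and Prg2 differed from each other by 0.08, which was within the error of that gap (0.29). With all measured genes split by mean signal into 4 classes of equal size, numbered from the dimmest, both lay in class 3, where 0.4% of the genes passed 2-fold upward. Their signals were far above the background, and with normexp background correction, which adds an offset that draws dim values together, Hdc still had a difference of 1.27 and Prg2 of 1.21.

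Of the granule proteases, the chymase Cma1 stood highest in difference, the basophil protease Mcpt8 and the carboxypeptidase Cpa3 were next, and Mcpt4 was near 0. Cma1 encodes mast cell protease 5, a serine protease of connective tissue mast cells. Its brighter probe (A_51_P514035, mm8 chromosome 14, 54895688 to 54895747) gave 135 on the PAD4-/- array and 60.8 on the WT array, a difference of 1.20 with an error of 0.22. Its second probe (A_51_P514029) had 33.3 on the PAD4-/- array and 17.4 on the WT array, where it was not well above background. It was at least 1.95-fold higher, a bound that sets the bright level against the dim probe's own level or the lowest level well above background on that array, whichever is higher. A probe that passes on the PAD4-/- array only is given as higher by definition. The direction of this second probe thus adds nothing to that of the brighter one. Cma1 was dim, in signal class 1, where 2.26% of the genes passed 2-fold upward and 7.21% passed 1.5-fold. With normexp its difference was 0.73, and with plain background subtraction it was 0.98, both under 2-fold.

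Mcpt8 encodes a granzyme-like serine protease used as a marker of mouse basophils. Its probe (A_51_P413059, mm8 chromosome 14, 55037534 to 55037908) gave 321 on the PAD4-/- array and 215 on the WT array. The difference was 0.63 with an error of 0.21, just past 1.5-fold, and it was 0.52 with normexp and 0.57 with median scaling, both short of 1.5-fold. In its signal class, class 2, 3.15% of the genes passed 1.5-fold upward. Cpa3 encodes carboxypeptidase A3, a metalloprotease that is among the first granule genes switched on in mast cell progenitors. Its probe (A_51_P214127, mm8 chromosome 3, 20407825 to 20407884) gave 1475 on the PAD4-/- array and 1134 on the WT array, a difference of 0.43 with an error of 0.20. This was 2.10 times the scanner error but under 1.5-fold, and it lay between 0.37 and 0.44 under all the alternatives run.

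Mcpt4 encodes a chymase of connective tissue mast cells, and its 2 probes had unlike results. The brighter (A_51_P145130, mm8 chromosome 14, 55013815 to 55013846) had 87.5 on the PAD4-/- array and 91.6 on the WT array, a difference of -0.02 with an error of 0.22. The dimmer (A_51_P145132, mm8 chromosome 14, 55013823 to 55013882) had 21.6 on the PAD4-/- array and 15.0 on the WT array, where it was not well above background, which makes it at least 1.26-fold higher. The mm8 intervals printed for the probes overlap by 24 bases. As read, the difference of the dimmer probe was 0.57 with an error of 0.52, and the gap between the probes was 0.59 with an error of 0.56. Tpsb2 encodes a tryptase, mast cell protease 6. Its single probe (A_52_P254155, mm8 chromosome 17, 25095113 to 25095172) had 24.5 on the PAD4-/- array and 15.2 on the WT array, where it was not well above background, at least 1.43-fold higher.

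**Figure D2:**
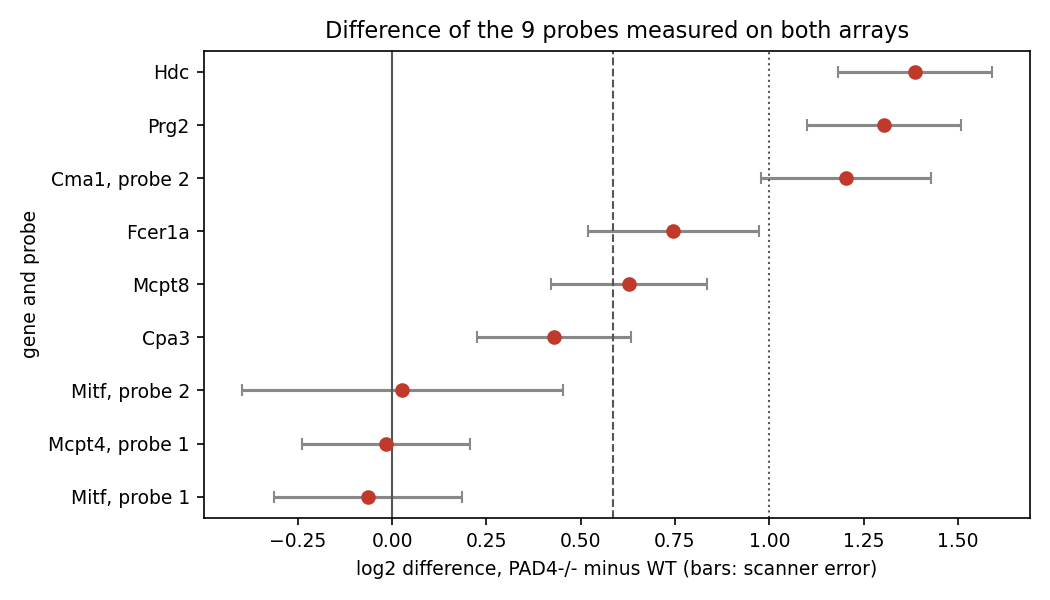
Log2 difference, PAD4-/- minus WT, of the 9 probes measured on both arrays, sorted by size, with the scanner error as bars (1 array per group). The solid line is 0, the dashed line 1.5-fold and the dotted line 2-fold. Hdc (1.39), Prg2 (1.31) and Cma1 (1.20) lie past 2-fold, while Mcpt4 and both Mitf probes lie at 0 within their errors.

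Among the chains of the IgE receptor, the alpha chain had a higher reading on the PAD4-/- array. The beta chain passed the filter on that array only, and such a probe is given as higher by definition. The gamma chain, shared with other receptors, was under 1.5-fold at both of its probes. Fcer1a encodes the alpha chain, which binds IgE. Its probe (A_51_P429770, mm8 chromosome 1, 175059409 to 175059468) gave 107 on the PAD4-/- array and 65.8 on the WT array, a difference of 0.75 with an error of 0.23. It was also in signal class 1, and with normexp its difference was 0.44, under 1.5-fold. Ms4a2 encodes the beta chain, which amplifies the signal of the receptor. Its probe (A_51_P234975, mm8 chromosome 19, 11684333 to 11684392) had 22.6 on the PAD4-/- array and 10.1 on the WT array, where it was not well above background. It was at least 1.32-fold higher. As read the difference was 1.21 with an error of 0.76, or 0.27 with normexp. Fcer1g, the gamma chain, had 2326 on the PAD4-/- array and 2174 on the WT array at its brighter probe, a difference of 0.15 with an error of 0.20. Its other probe had a difference of 0.23 with an error of 0.20.

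All 13 probes of the members were positive and significant against their local background on both arrays by the scanner software, but 4 passed its stricter filter on the PAD4-/- array only, and none on the WT array only. Of all 41170 probes, 2.12% passed it on the PAD4-/- array only and 1.91% on the WT array only. Both shares were larger among dim probes. Among the 2310 probes with a mean level in the range of these 4, 24.7% passed on the PAD4-/- array only and 22.7% on the WT array only. A passing spot on 1 array is thus common at this level. For Tpsb2, Ms4a2 and the dimmer probes of Cma1 and Mcpt4 the at-least folds hold for the processed signal only. With normexp the log2 differences were 0.20 for Tpsb2, 0.27 for Ms4a2, 0.34 for this Cma1 probe and 0.18 for this Mcpt4 probe. Each was smaller than its at-least fold.

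Mitf encodes the transcription factor that mast cells need for Kit, protease and tryptase gene activity and that pigment cells also need. It was the only member printed in several spots of 1 probe. Its main probe (A_51_P364274, mm8 chromosome 6, 97983855 to 97983914) was printed in 10 spots. Their signals ran from 43.9 through a median of 53.7 to 60.5 on the PAD4-/- array, and from 48.3 through a median of 57.6 to 99.5 on the WT array. The ranges share 48.3 to 60.5, and 5 of 10 spots were higher and 5 lower on the PAD4-/- array after scaling. The spot at 99.5 and the spot at 48.3 were flagged as outliers by the scanner software on the WT array and were left out. The other WT spots ran from 52.3 to 60.5, and 5 of the 10 PAD4-/- spots had signals below all of them. Without the flagged spots the difference was -0.06 with an error of 0.25. Over all 10 spots the median of the spot differences was -0.00442 and their mean -0.12. The second probe (A_52_P100140) had 20.0 on the PAD4-/- array and 20.3 on the WT array, a difference of 0.03 with an error of 0.43. Both Mitf probes were dim, in signal class 1. Of 7 pigment cell genes, 2 were measured on both arrays and neither was 1.5-fold different, and Tyr, Tyrp1, Dct and Mlana, which make pigment or its organelle, were not well above background on either array.

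**Figure D3:**
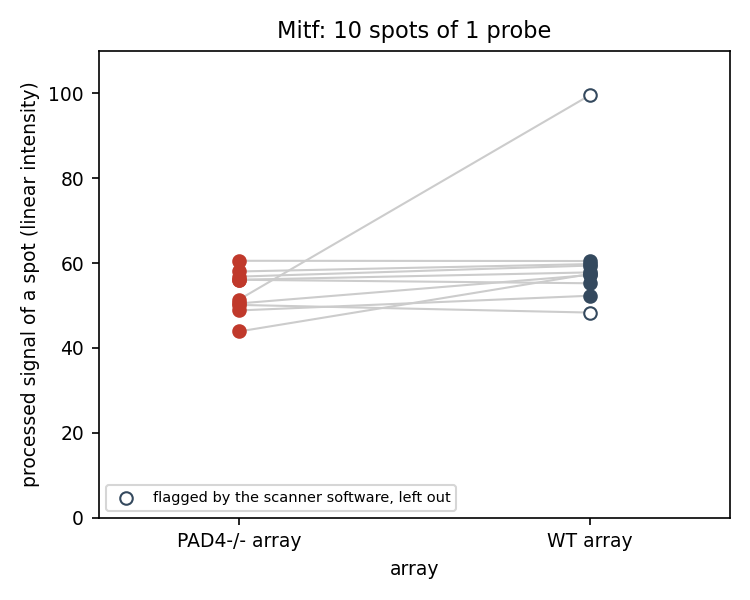
Processed signal (linear axis from 0) of the 10 spots of the main Mitf probe, on the PAD4-/- array at left and the WT array at right, with a line joining the spots at the same place. Open circles are 2 spots flagged by the scanner software and left out. The spots of the arrays overlap in part, with medians of 53.7 (PAD4-/-) and 57.6 (WT), and 1 flagged WT spot stands apart at 99.5.

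In order of difference the 8 measured members ran Hdc, Prg2, Cma1, Fcer1a, Mcpt8, Cpa3, Mcpt4 and Mitf. Of the 7 gaps between neighbours in this order, 2 were larger than their scanner error, that between Cma1 and Fcer1a (0.46, error 0.32) and that between Cpa3 and Mcpt4 (0.45, error 0.30). In the main setting 3 members lay past 2-fold, 3 lay between 0.43 and 0.75, and Mcpt4 and Mitf lay near 0. The other gaps between neighbours were within their scanner error. Only neighbours were compared, so the order does not show separate groups. With normexp Cma1 (0.73) was under 2-fold and nearer to Fcer1a (0.44), so the first of the 2 larger gaps depends on the setting.

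**Figure D4:**
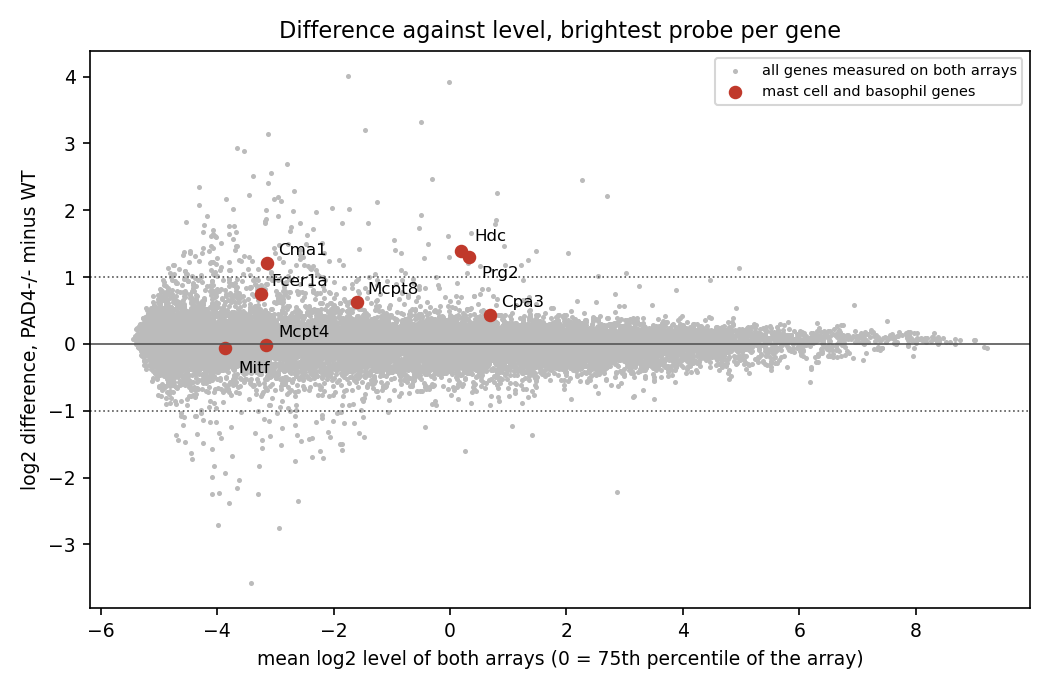
Log2 difference (PAD4-/- minus WT) against the mean log2 level of both arrays for the brightest probe of each of 17021 measured genes (grey), with the 8 measured mast cell and basophil genes in red. Grey points spread widely at low levels and narrow to the right. Hdc and Prg2 lie past the dotted 2-fold line at a level where few genes do, and Cma1 and Fcer1a lie within the wide part.

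The sequences before the start sites of 4 members are shown because matches to the GATA motif lie in the receptor and carboxypeptidase genes and none lies in Hdc. They are the 250 bases before the RefSeq start site (GRCm38.p6), read 5′ to 3′ on the strand of the gene, with matches in capitals.
Ms4a2, chr19:11623720-11623969, minus strand: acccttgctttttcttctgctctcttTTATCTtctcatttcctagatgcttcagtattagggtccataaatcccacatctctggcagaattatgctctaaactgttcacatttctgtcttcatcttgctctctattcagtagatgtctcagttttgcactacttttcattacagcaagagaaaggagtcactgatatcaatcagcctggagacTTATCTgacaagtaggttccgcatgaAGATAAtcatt
Fcer1a, chr1:173227230-173227479, minus strand: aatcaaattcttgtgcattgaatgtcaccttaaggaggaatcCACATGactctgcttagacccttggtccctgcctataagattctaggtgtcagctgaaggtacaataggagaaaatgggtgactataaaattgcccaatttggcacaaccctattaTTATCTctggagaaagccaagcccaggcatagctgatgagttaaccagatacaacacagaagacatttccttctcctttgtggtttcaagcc
Cpa3, chr3:20242182-20242431, minus strand: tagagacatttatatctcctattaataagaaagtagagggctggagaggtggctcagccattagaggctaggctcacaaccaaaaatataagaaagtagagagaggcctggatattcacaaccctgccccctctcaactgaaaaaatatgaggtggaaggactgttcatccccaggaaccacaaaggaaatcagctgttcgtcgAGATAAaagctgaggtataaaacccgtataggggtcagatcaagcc
Hdc, chr2:126618679-126618928, minus strand: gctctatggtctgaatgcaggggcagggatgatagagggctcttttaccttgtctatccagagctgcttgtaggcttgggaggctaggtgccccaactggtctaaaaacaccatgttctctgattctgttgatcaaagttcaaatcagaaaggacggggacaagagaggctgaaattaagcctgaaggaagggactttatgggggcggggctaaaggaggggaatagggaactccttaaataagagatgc
The motifs searched on both strands were AGATAA and TGATAA, bound by GATA factors, and CATGTG and CACGTG, E-box forms bound by MITF. CACGTG reads the same on both strands and was counted once, and no match shown overlaps another. The Ms4a2 window held AGATAA 3 times, at 11 bases before the start site and, on the opposite strand, at 37 and 224 bases. The Cpa3 window held it once, at 46 bases, and the Fcer1a window held it once on the opposite strand, at 92 bases, with CATGTG on the opposite strand at 208 bases.

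Windows were at hand for 8 of the 10 members. A GATA match lay in 5 of these 8, Ms4a2, Fcer1a, Cpa3, Mcpt4 and Mitf, and in 16.6% of the 32851 promoter windows of the same length in the table. Mitf has 3 start sites in the table, so 6 of 10 member windows held a match. The windows of Hdc, Cma1 and Mcpt8 held none of the 4 motifs. CATGTG lay in 1 member window, against 12.2% of all windows, and CACGTG in none, against 6.02%. A match in these letters is a description of the window and not a site of binding. Gata2, which encodes the factor of mast cell and basophil progenitors, had 9220 on the PAD4-/- array and 8450 on the WT array, a difference of 0.18 with an error of 0.20. Gata1, the factor of erythroid, mast cell and eosinophil genes, was higher, with 458 on the PAD4-/- array and 244 on the WT array, a difference of 0.96 with an error of 0.21.

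Cma1, Mcpt4 and Mcpt8 lie in 1 cluster of serine protease genes on chromosome 14, which runs in the RefSeq order from Cma1 over the other mast cell proteases and Ctsg to the granzymes, ending with Gzmb. Of its 15 genes, 14 had a probe and 5 were measured on both arrays, of which 4 were at least 1.5-fold higher, Cma1 and Mcpt8 among them, beside 2.88% of all measured genes. Gzmb, a granzyme of cytotoxic cells that mast cells and their progenitors also make, had 315 on the PAD4-/- array and 82.9 on the WT array, a difference of 1.98 with an error of 0.22. Ctsg, the cathepsin G of neutrophil and mast cell granules, had 24334 on the PAD4-/- array and 12911 on the WT array, a difference of 0.96 with an error of 0.20. Mcpt1, Mcpt2 and Mcpt9, proteases of mucosal or uterine mast cells, lay between Cma1 and Mcpt4 in this order and were not well above background on either array. Gzmd was well above background at 1 of its 2 probes and on the PAD4-/- array only, with 123 there and 17.8 on the WT array. Gzme went the other way and was well above background on the WT array only, with 3.73 on the PAD4-/- array and 19.1 on the WT array. These genes are close relatives, and whether a probe binds the RNA of another member of the cluster was not tested.

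Another 5 lists of genes of these cells held 65 genes, of which 53 were measured on both arrays. Of these, 5 passed 1.5-fold upward and 3 downward, beside 2.88% and 1.87% of all measured genes, and the median difference was -0.02, beside 0.02 over all genes. The list of other granule proteases had 2 of 5 measured members at least 1.5-fold higher, Gzmb and Ctsg. Prss34, a protease of basophils named here after its value was seen, missed 1.5-fold with a difference of 0.58 (error 0.21), from 242 on the PAD4-/- array and 167 on the WT array. Tpsab1 and Tpsg1, which encode other tryptases, were not well above background on either array.

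Among 12 genes of granule matrix, amines and lipid mediators, 1 passed 1.5-fold in each direction. Alox5, which makes the first step of leukotriene synthesis, had 236 on the PAD4-/- array and 120.3 on the WT array, a difference of 1.02 with an error of 0.21, and its other 2 probes gave 0.71 and 0.68. Hpgds, the prostaglandin D synthase of mast cells, was lower, with 69.2 on the PAD4-/- array and 112 on the WT array, a difference of -0.64 with an error of 0.22 (-0.37 with normexp). The other members of this list, such as the granule proteoglycan core Srgn, lay within 1.5-fold. At the brightest probe of each gene, none of 13 measured genes of IgE receptor signalling was 1.5-fold different, and their median was -0.16. Of the other 2 probes of Plcg1, a phospholipase of this pathway, 1 had a difference of -0.79 with an error of 0.21, against -0.24 at the brightest.

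Of 11 measured receptors and cytokines, Il1rl1, Il4ra and Il4 were at least 1.5-fold different. Il1rl1 encodes the IL-33 receptor of mast cells and basophils. At the 1 of its 3 probes that was measured on both arrays it had 209 on the PAD4-/- array and 67.1 on the WT array, a difference of 1.69 with an error of 0.23, or 1.09 with normexp. Il4ra, a chain of the IL-4 receptor, had 5373 on the PAD4-/- array and 9511 on the WT array, a difference of -0.77 with an error of 0.20. Il4, a cytokine that basophils secrete, differed by -0.78 with an error of 0.21, and was -0.56 with normexp. Kit, the stem cell factor receptor on which both the sort and the mast cell lineage rest, differed by 0.07 with an error of 0.20, and Cd200r3, a basophil and mast cell receptor, was not well above background on either array.

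Prg2 is shared with eosinophils, and the peroxidase and ribonuclease genes of their granules were also higher on the PAD4-/- array. Of 6 eosinophil genes measured on both arrays, 4 were at least 1.5-fold higher, and all 6 were above 0, with a median of 0.91. Among all 17021 measured genes, 2.88% were at least 1.5-fold higher and 9363 were above 0. With normexp 2 of the 6 eosinophil genes passed 1.5-fold upward, beside 203 of all 17021, and the eosinophil median was 0.46. Epx, eosinophil peroxidase, had 114 on the PAD4-/- array and 50.2 on the WT array, a difference of 1.24 with an error of 0.23, or 0.67 with normexp. Ear1, an eosinophil ribonuclease, differed by 1.05 with an error of 0.21, and its relatives Ear6 and Ear10 by 0.82 and 0.998; these genes are near-identical copies, and their probes may not tell them apart. Prg3, the neighbour and relative of Prg2, was well above background on the PAD4-/- array only, with 75.03 there and 17.8 on the WT array, at least 4.35-fold higher. Il5ra, the receptor that defines eosinophil progenitors, was not well above background on either array, and Ccr3 (0.09, error 0.26) and Siglecf (0.28, error 0.21) were within 1.5-fold.

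Markers of other blood lineages moved with the members. Over all 17021 measured genes, 9363 were above 0, 2.88% were at least 1.5-fold higher and 1.87% lower. All 9 measured neutrophil granule genes had a positive difference. Of these, 3 passed 1.5-fold, namely Elane (1.92), Ms4a3 (1.79) and Ctsg. The summed signal of the 9 was 150923 on the PAD4-/- array and 99640 on the WT array. Mpo, which was just short of 1.5-fold (0.58), alone made up 118188 on the PAD4-/- array and 81966 on the WT array. Among erythroid genes 5 of 7 passed 1.5-fold upward, namely Klf1, Car1, Epor, Ermap and Rhd, by 0.87 to 2.52, while the other 2, Alas2 (-0.47) and Hba-a1 (-0.22), had differences below 0. The erythroid sums were 5989 on the PAD4-/- array and 5276 on the WT array, of which Hba-a1 alone made up 3454 on the PAD4-/- array and 4176 on the WT array. Of 7 monocyte genes at their brightest probes, Ccr2 (1.48) and F13a1 (1.61) passed 1.5-fold upward, with sums of 72883 on the PAD4-/- array and 70484 on the WT array. Lyz2 alone made up 52969 on the PAD4-/- array and 52689 on the WT array. The probes of Ly6c1 had unlike values, 0.15 at the brightest and 1.84 with an error of 0.21 at the other. Of 6 megakaryocyte genes, Pf4 (0.63) and Gp1bb (0.62) passed 1.5-fold upward, with sums of 20196 on the PAD4-/- array and 19033 on the WT array. Of 9 measured genes of the lineage gate, 2 passed 1.5-fold upward, Klrb1c (0.75) among them, and 6 were above 0. The lineage gate sums were 12535 on the PAD4-/- array and 13304 on the WT array. Ptprc, which is also among the genes of the LSK phenotype, alone made up 11263 on the PAD4-/- array and 12172 on the WT array. For the 6 eosinophil genes the sums were 721 on the PAD4-/- array and 454 on the WT array. Among 6 genes of the LSK phenotype 1 was above 0, Flt3 was at least 1.5-fold lower (-0.67), and Ly6a, which encodes Sca-1, differed by -0.14 with an error of 0.20. The part of other cell types in the differences of the mast cell and basophil genes was not tested.

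**Figure D5:**
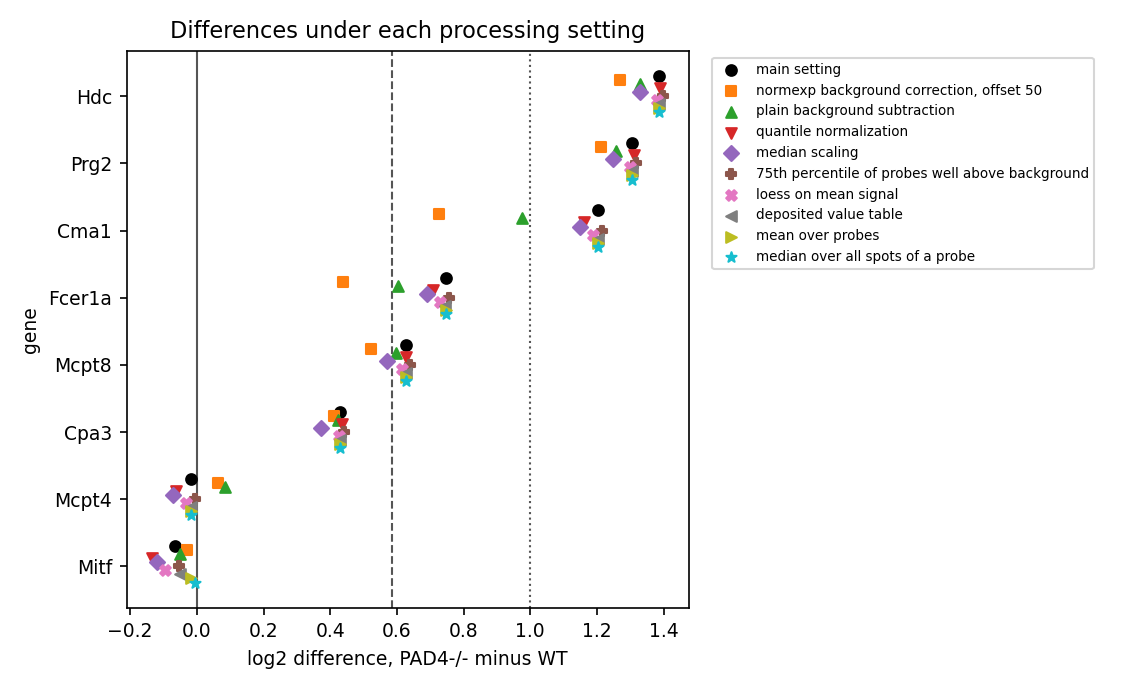
Log2 difference (PAD4-/- minus WT) of the 8 measured genes under the main setting (black) and the alternatives that keep the same probes, 1 symbol per setting, with lines at 0 (solid), 1.5-fold (dashed) and 2-fold (dotted). Hdc and Prg2 stay past 2-fold under each of them, whereas Cma1 (0.73), Fcer1a (0.44) and Mcpt8 (0.52) fall back with normexp.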

How the data were processed

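RNA of LSK cells was read on 1-colour Agilent arrays of design 014868 with Feature Extraction 9.5.3.1, per the file headers, 1 array per genotype, with probe coordinates on mm8. Version 9.5 of that software stands in the submitters' processing notes. In the deposited scanner files each spot has an intensity on a linear scale, after background subtraction and spatial detrending by the authors' software, with a p-value of each deposited spot against its background. Values of the deposited table are log2 values. Set against the scanner files, each was, for all 41174 probes within 0.001, the log2 of the median processed signal minus a constant, 9.62 for PAD4-/- and 9.67 for WT. Its column medians were -3.53 for PAD4-/- and -3.59 for WT, so scale, centring and direction were settled.

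The value of a probe was the mean log2 processed signal of its unflagged spots minus the array's 75th percentile over non-control probes, which was a signal of 786 on the PAD4-/- and 814 on the WT array. Control and outlier spots were omitted. A probe was measured when the software called it well above background on both arrays. Of 41170 probes, 64.1% passed this on the PAD4-/- and 63.9% on the WT array. A gene took its brightest measured probe. For an at-least fold, the dim side was the probe's own level or, where higher, the lowest level well above background on that array. Such a fold takes no account of the spot error or of other background corrections. Genes were counted at 1.5-fold and 2-fold. The number of arrays limits the precision, and no test was possible.

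Probes were named through RefSeq of GRCm38.p6 (24371 by accession, 6301 by symbol, 2426 by synonym, 8072 kept the name in the files). Promoter windows are RefSeq's. The text names all 10 members, list members at least 1.5-fold different, and Kit, Ly6a, Fcer1g, Gata2, Epx and Padi4; any other gene was named with its value known. The members and lists were chosen with earlier results of these data known. The alternatives were normexp with an offset of 50, plain background subtraction, quantile, median, detected-probe and loess (window 0.3) scaling, the deposited table, the mean over probes and 2 looser filters. The steps were tested on simulated data. Python 3.11.15, numpy 2.4.6, pandas 2.3.3, statsmodels 0.14.6 and limma 3.58.1 in R 4.3.3 were used. Single values of some genes on the marker lists are not reported here.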

Additional observations from a re-analysis of the deposited data

How the results depend on the processing

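No paired analysis was possible because a single array stood for each genotype, and for the same reason none could be omitted in turn. The count of members at least 1.5-fold higher was 5 of 8, and became 3 with normexp background correction, whose added offset draws dim values together. It was 4 with median scaling and 7 of 10 with either looser filter, which take the value of a dim WT probe as measured. The count at least 2-fold higher was 3, and 2 to 4 under the alternatives, and no member was 1.5-fold lower under any of those run. The median member difference was 0.69 and lay between 0.48 (normexp) and 0.74 (looser filters). Hdc and Prg2 passed 2-fold under every alternative run. Mcpt4 had small values of either sign, from -0.07 to 0.08. For all genes, the 490 at least 1.5-fold higher and 318 lower became 203 and 131 with normexp, and 426 and 417 with median scaling, which also turned the median of all genes to -0.03. The median of the spot differences over all spots of a probe was an alternative chosen after seeing the data. It moved Mitf alone, from -0.06 to -0.00442. Signal over background limits Cma1, Fcer1a, Mcpt4, Tpsb2, Ms4a2 and Mitf.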
